A study of Mus musculus with 3 samples.

Results

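The 9 genes described here set whether a cell lives or dies by apoptosis or necroptosis: Bcl2, Bcl2l1, Mcl1, Bcl2l11, Bbc3, Pmaip1, Casp8, Ripk3 and Mlkl. They were taken by name, by a rule that uses no measured value, though with earlier results of these data known. They are 9 of the 22535 genes listed in the count tables, and each had UMIs in every one of the 3 libraries. Cells came from the kidney cortex of WT1CreERT2; Rosa26-tdT fl/+ mice, a genotype that all 3 libraries share. In these mice tamoxifen-activated Cre, made from the WT1 locus, switches on the red protein tdT in cells that express WT1, which in the kidney are podocytes and part of the parietal epithelial cells (PECs) of Bowman's capsule. The Sham library held cells after sham surgery, and the IRI24h-TDN library held cells taken 24 h after a severe ischemia-reperfusion injury (IRI) of both kidneys. Both were mixtures of tdT+ and tdT- cells in which the tdT+ cells had been enriched. The IRI24h-TD library held sorted tdT+ cells 24 h after the same injury. Each condition was 1 library, and the labels give no age, so no difference below has a replicate check and no p-value is given. The paper states a number of kidneys per group. Whether all of them were pooled in 1 library, and whether both injury libraries came from the same animals, is not given in the sources used here. Condition and library cannot be told apart.

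Apoptosis through the mitochondrion is set by the balance within the BCL2 family. Survival proteins such as BCL2, BCL-xL (the product of Bcl2l1) and MCL1 hold the pore formers BAX and BAK in check. BH3-only proteins such as BIM (Bcl2l11), PUMA (Bbc3) and NOXA (Pmaip1) bind the survival proteins and free the pore formers, and Bbc3 and Pmaip1 are known targets of p53. Caspase-8 starts apoptosis below death receptors and also cleaves the kinases that start necroptosis, the lytic death in which RIPK3 phosphorylates MLKL and MLKL ruptures the plasma membrane. Both kinds of death are known to follow ischemia of the kidney tubule.

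Transcripts were counted as UMIs, molecular tags that each mark 1 captured transcript. The Sham, IRI24h-TDN and IRI24h-TD tables held 10062, 10062 and 9884 cell barcodes with 69980443, 92355554 and 93470709 UMIs. After barcodes with under 200 genes or over 50% mitochondrial UMIs were left out, 8047, 9024 and 9689 cells remained, with a median of 7746, 9151 and 9529 UMIs per cell. Between 102 and 114 barcode sequences were shared by each pair of libraries. Cells were grouped into 22 clusters without use of the 9 genes, and the clusters were named from marker genes, with "-like" added because the names rest on markers only. The podocyte-like class held 17590 cells and expressed all 10 of its markers, the PEC-like class held 1780 cells, and the proximal tubule-like (PTEC-like) class held 1354. A pair of clusters, of 942 and 204 cells, were left unnamed: the first expressed podocyte genes at a median of only 1453 UMIs per cell, and the second matched no list. Free RNA was present: Kap, a proximal tubule gene, had a UMI in 76.6% of podocyte-like cells in Sham but in 2.32% in IRI24h-TDN and 1.06% in IRI24h-TD. Levels below are counts per 1000000 UMIs of the summed cells (CPM) with exact 95% Poisson intervals in brackets, and intervals on ratios and shares are also exact. All of these intervals cover counting error only.

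Positions are those of GENCODE M21 (GRCm38), given for the 8 genes with promoter sequence below. Bcl2 spans chr1:106538178-106714274 on the minus strand and overlaps 3 other annotated genes, among them the antisense transcript D630008O14Rik. Casp8 lies on the same chromosome at chr1:58795374-58847503, on the plus strand. Bcl2l1 (chr2:152780668-152831728, minus) and Bcl2l11 (chr2:128126038-128162547, plus) share chromosome 2. Mcl1 is at chr3:95658788-95663176 on the plus strand, and Bbc3 at chr7:16308393-16318205 on the plus strand. Ripk3 is at chr14:55784995-55788865 and Mlkl at chr8:111311797-111338177, both on the minus strand, and a processed pseudogene on the plus strand, Gm45712, overlaps Mlkl.

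Promoter sequence from RefSeq (GRCm38.p6) was matched for 8 of the 9 genes. The printed windows are the 250 bases before a transcript start: that of Mcl1, which was higher in podocyte-like cells of both injury libraries, and those of Ripk3 and Mlkl, the necroptosis pair that were both higher in PEC-like cells of both injury libraries. Capitals mark a GC box, GGGCGG on either strand. Mcl1 (chr3:95658471-95658720, plus strand) and Ripk3 (chr14:55788858-55789107, minus strand) hold 1 GC box each, and Mlkl (chr8:111338206-111338455, minus strand) holds none.
Mcl1: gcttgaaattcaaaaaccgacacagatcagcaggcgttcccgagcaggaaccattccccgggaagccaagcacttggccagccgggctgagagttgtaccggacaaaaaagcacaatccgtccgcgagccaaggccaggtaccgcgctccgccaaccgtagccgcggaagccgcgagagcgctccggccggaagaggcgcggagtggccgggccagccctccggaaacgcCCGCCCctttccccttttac
Ripk3: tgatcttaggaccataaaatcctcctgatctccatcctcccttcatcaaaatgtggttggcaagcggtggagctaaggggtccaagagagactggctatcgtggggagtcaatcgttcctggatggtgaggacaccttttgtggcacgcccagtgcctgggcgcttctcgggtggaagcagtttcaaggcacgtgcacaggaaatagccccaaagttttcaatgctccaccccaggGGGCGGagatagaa
Mlkl: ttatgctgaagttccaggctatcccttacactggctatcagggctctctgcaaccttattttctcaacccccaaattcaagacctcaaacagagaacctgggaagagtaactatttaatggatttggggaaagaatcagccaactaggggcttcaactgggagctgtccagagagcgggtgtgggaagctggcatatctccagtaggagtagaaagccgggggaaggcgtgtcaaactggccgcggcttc

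Of 32851 RefSeq promoter windows of this length, 32.7% hold a GC box, so a GC box is common. On either strand, the AP-1 motif TGANTCA is in 6.75% of windows, the interferon-stimulated response element in 2.98%, the interferon-gamma activated site TTCNNNGAA in 7.02%, and the TATA box TATAAA in 12.4%. None of these 4 motifs and no p53 half-site (7.13% of windows) matched in a window of the 8 genes. The NF-kappaB site (7.25% of windows) matched in windows of Bcl2l1 and Bbc3. A match is a description of letters only, and no match says only that these letters are not in these 250 bases.

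Each of the 9 genes had its own order across the 12 named classes, and neighbours in that order often did not differ beyond counting error. In the following levels, all libraries were summed within a class, so the order also reflects how many cells of a class each library gave. Bcl2, the founding survival gene, was highest in podocyte-like cells at 65.3 CPM [64.1-66.5] and lowest in PTEC-like cells at 11.8 CPM [10.04-13.8]. Of the 11 steps between neighbouring classes, 10 had overlapping intervals for Bcl2, so its order is a gradient with a single clear step, between distal convoluted tubule-like (22.4 CPM) and intercalated-like cells (14.7 CPM). Within Sham alone, connecting tubule-like (80.9 CPM), fibroblast-like (75.9 CPM) and PEC-like cells (72.1 CPM) stood above podocyte-like cells (67.1 CPM) in Bcl2, each with an interval that overlapped that of podocyte-like cells. Bcl2l1 had nearly the opposite place for podocyte-like cells: they stood next to last at 49.9 CPM [48.9-51.0], above fibroblast-like cells at 36.9 CPM and far below connecting tubule-like cells at 185 CPM [174-197]. Mcl1, whose protein is short-lived and renewed from its transcript, was highest in monocytic-like cells at 1391 CPM [1364-1418] and in the 55 neutrophil-like cells at 1347 CPM [1219-1484], which did not differ beyond counting error. The lowest Mcl1 level was 172 CPM in distal convoluted tubule-like cells, and podocyte-like cells stood between at 377 CPM [374-380].

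With the libraries summed, the BH3-only genes were highest in immune-like classes. Bcl2l11 reached 175 CPM [131-229] in neutrophil-like and 127 CPM [119-136] in monocytic-like cells, against 37.5 CPM in fibroblast-like cells, the next class, and 6.75 CPM in ascending limb-like cells, the lowest. Bbc3 was at 48.9 CPM [44.0-54.2] in monocytic-like cells and at 17.7 CPM [15.8-19.7] in PEC-like cells, and the other 10 classes lay between 4.11 and 16.5 CPM. Pmaip1 had the widest range over the named classes. It was at 233 CPM [223-245] in monocytic-like, 87.5 CPM [83.3-92.0] in PEC-like, 79.9 CPM [75.2-84.9] in PTEC-like (29.5 CPM within Sham) and 72.1 CPM [65.3-79.4] in connecting tubule-like cells, against 0.78 CPM [0.65-0.92] in podocyte-like cells, where 0.677% of cells had a UMI. Podocyte-like cells thus held 132 Pmaip1 UMIs over 17590 cells, and whether these are free RNA of other cells was not tested. The unnamed cluster of 204 cells, whose leading genes were Jchain, Igha and Igkc, was at 280 CPM in Pmaip1, above every named class.

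Casp8 was highest in endothelial-like cells at 123 CPM [105-144] and monocytic-like cells at 121 CPM [113-129], whose intervals overlap, and lowest in mesangial-like cells at 24.1 CPM. Podocyte-like cells were the class above the lowest, at 30.8 CPM [29.9-31.6]. Ripk3 was sparse, with 462 UMIs in all kept cells, of which 205 were in monocytic-like cells at 27.6 CPM [24.0-31.7]. In that class 13.1% of cells had a Ripk3 UMI, against 4.21% of PEC-like cells and 0.0853% of podocyte-like cells. Podocyte-like cells held 18 Ripk3 UMIs in all, while the same cells held 808 Mlkl UMIs. Mlkl was at 23.1 CPM [15.6-33.0] in endothelial-like, 14.1 CPM [11.6-17.1] in monocytic-like, 8.70 CPM [7.40-10.2] in PEC-like and 4.77 CPM [4.44-5.11] in podocyte-like cells. No podocyte-like cell held a UMI of both the kinase and its substrate, which on so few Ripk3 UMIs cannot show whether a cell makes both. In the 55 neutrophil-like cells neither gene had a UMI, which by a floor of 3 cells allows up to 5.45% of cells with one, and by the exact interval up to 6.49%.

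**Figure D1:**
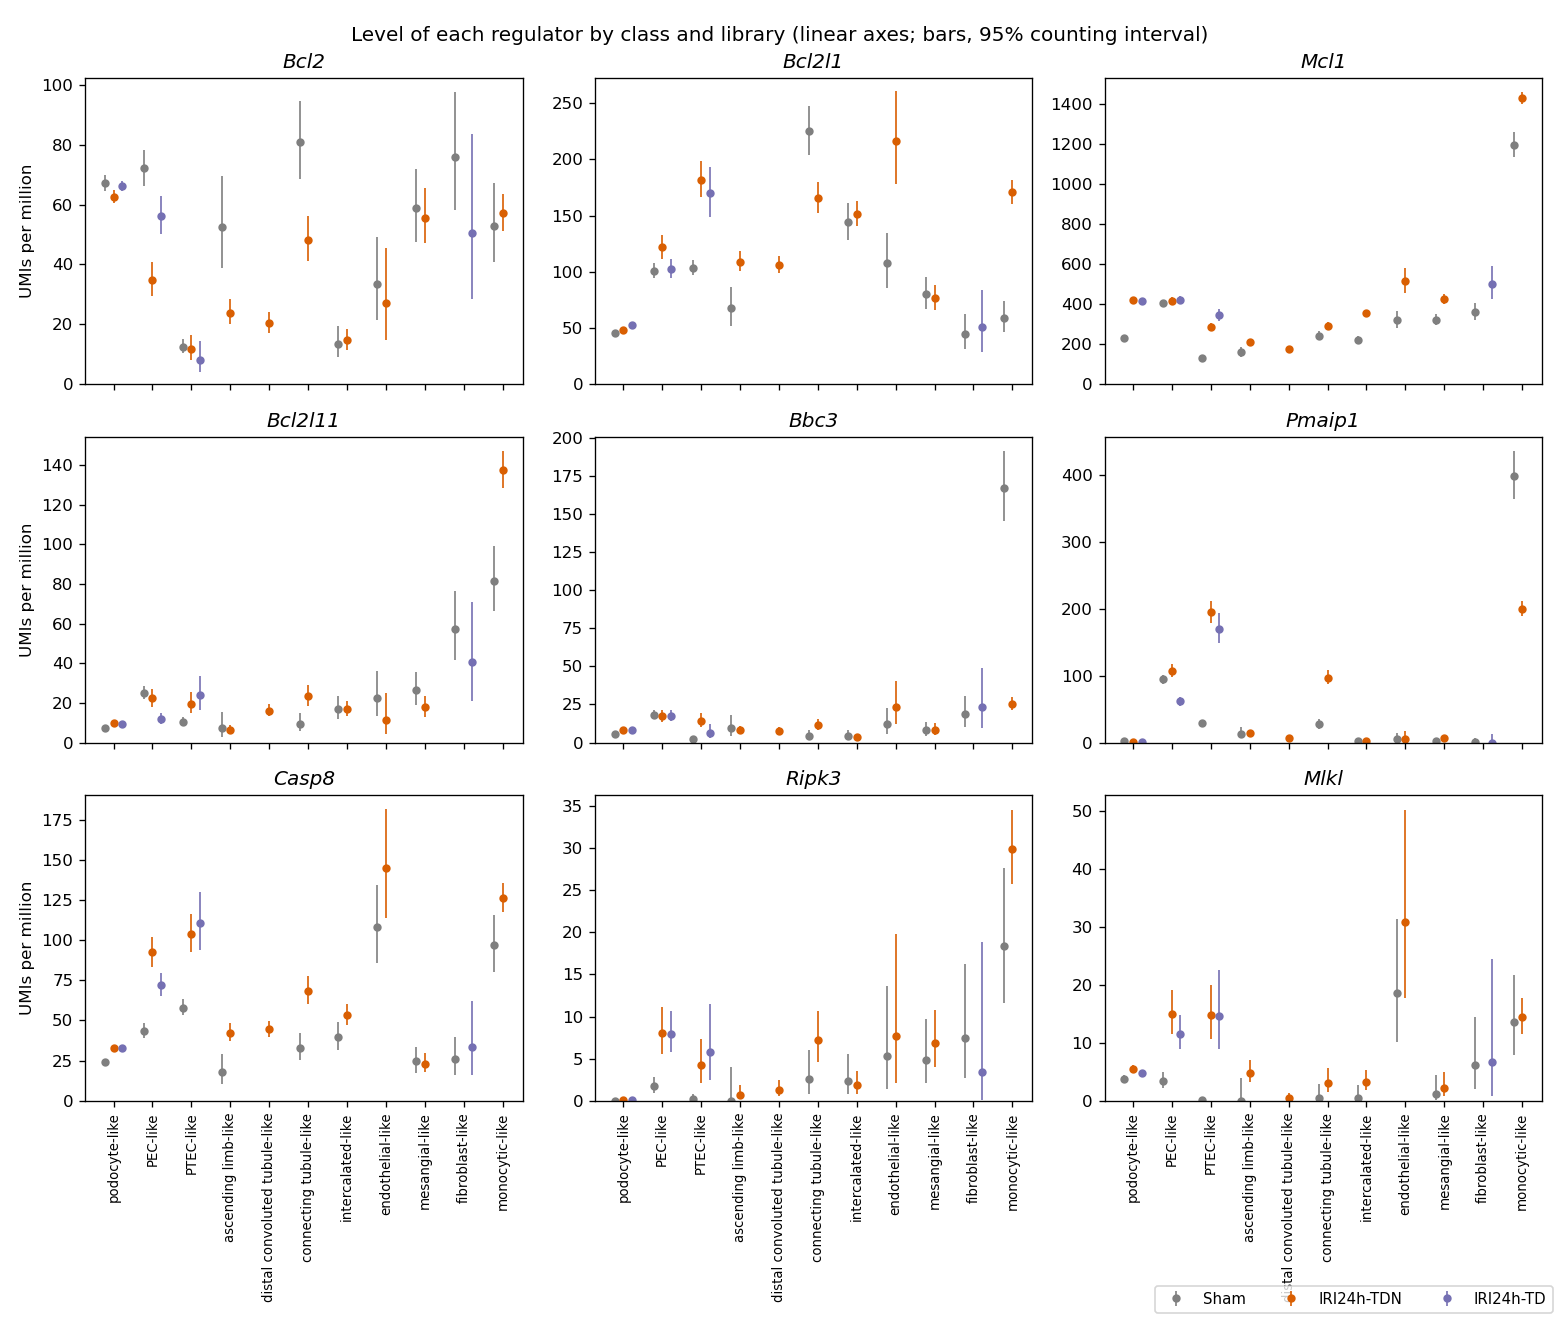
Level of each of the 9 genes by class and library. The vertical axis gives CPM of the class (linear), points are the libraries with at least 50 cells of the class, and bars are exact 95% counting intervals. Mcl1 in podocyte-like cells stands at 231 CPM in Sham and at 420 and 415 CPM in the injury libraries, and Pmaip1 stays near 0 in podocyte-like cells in all 3.

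Podocyte-like cells differed from Sham most clearly in Mcl1. Mcl1 was at 231 CPM [226-236] in Sham, 420 CPM [414-426] in IRI24h-TDN and 415 CPM [410-419] in IRI24h-TD. Both injury libraries were higher, by 1.82-fold [1.77-1.87] and 1.8-fold [1.75-1.84], and their own intervals overlap. Mcl1 was higher in IRI24h-TDN than in Sham in 9 of 9 classes compared, with log2 ratios from 0.04 to 1.12. The lowest was that of PEC-like cells, a ratio of 1.03 [0.97-1.09] whose interval includes 1. Within the larger PEC-like cluster, described below, Mcl1 was lower, at a ratio of 0.92 [0.86-0.98]. As Sham is 1 library, a difference of the same direction in each class cannot be told apart from that library. The share of podocyte-like cells with an Mcl1 UMI was 76.7%, 93.6% and 94.3%. When cells were thinned to 2400 UMIs each, that share was 39.1%, 61.3% and 60.4%, so that both injury libraries also stood above Sham at equal depth. Fos, an immediate-early gene that handling of cells can induce, was also higher in the injury libraries of this class (6018, 8089 and 8046 CPM), while the heat shock gene Hspa1a was lower (341, 132 and 121 CPM), and their part in the Mcl1 result was not tested.

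The other survival genes moved little in podocyte-like cells. Bcl2 was at 67.1, 62.7 and 66.1 CPM in Sham, IRI24h-TDN and IRI24h-TD, and Bcl2l1 at 45.3, 48.2 and 53 CPM. The BH3-only genes Bcl2l11 (7.42, 10.1 and 9.57 CPM) and Bbc3 (5.42, 8.07 and 8.05 CPM) were higher in both injury libraries by 1.29 to 1.49-fold. Casp8 (24.0, 32.7 and 32.6 CPM) and Mlkl (3.75, 5.42 and 4.83 CPM) were also higher, by 1.29 to 1.45-fold. For these 4 genes and Mcl1 the counting interval of each ratio to Sham lay above 1. The same held for the smaller ratios of Bcl2l1, 1.07 [1.0004-1.14] and 1.17 [1.11-1.24]. For Bcl2 the interval lay below 1 in IRI24h-TDN (0.93 [0.89-0.99]) and included 1 in IRI24h-TD. Pmaip1 went the other way, with 56, 41 and 35 UMIs, or 1.53, 0.83 and 0.42 CPM. It was 3.66-fold lower [2.36-5.75] in IRI24h-TD, at a share of cells (1.18%, 0.722% and 0.389%) under that of free Kap RNA in the same libraries, which was also lower after injury. The part of free RNA in this result was not tested. Ripk3 had 1, 8 and 9 UMIs in podocyte-like cells of the 3 libraries, too few for a comparison.

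Set against the 2-fold mark, podocyte-like cells had 0 of 8 genes higher and 0 of 8 lower in IRI24h-TDN than in Sham, where a gene needed 20 UMIs in the pair to be counted. Over all genes tested in this pair, 5.46% were at least 2-fold higher and 9.44% at least 2-fold lower. In IRI24h-TD against Sham 0 of 8 were higher and 1 of 8, Pmaip1, was lower, beside 5.35% and 11.4% of all genes. The median log2 difference of the 8 genes was 0.45 in IRI24h-TDN and 0.37 in IRI24h-TD, against -0.06 and -0.04 over all genes tested. These and the following comparisons with Sham share the same Sham cells.

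PTEC-like cells of the injury libraries were higher in most members. Sham held 1079 such cells, IRI24h-TDN 157 and IRI24h-TD 118. In IRI24h-TDN 4 of 8 genes were at least 2-fold higher and 0 lower, where 16.1% of all genes were higher and 15.4% lower. In IRI24h-TD 5 of 8 were higher and 0 lower, beside 20.9% and 12.4%. The median log2 difference of the 8 genes was 1.01 and 1.28, against 0.10 and 0.29 over all genes.

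Pmaip1 was at 29.5 CPM [26.1-33.3] in PTEC-like cells of Sham, 195 CPM [179-212] in IRI24h-TDN and 170 CPM [149-193] in IRI24h-TD, so that the injury libraries were 6.61-fold [5.70-7.69] and 5.75-fold [4.80-6.89] higher. The share of these cells with a Pmaip1 UMI was 10.3%, 58.0% and 46.6% in the 3 libraries in the same order, and after thinning to 2400 UMIs it was 5.95%, 27.9% and 24.4%. Bbc3 was at 2.34, 14.1 and 6.56 CPM, which is 6.0-fold [3.46-10.7] and 2.80-fold [1.13-6.39] higher, the second on 9 UMIs in IRI24h-TD. Bcl2l11 was at 10.6, 19.7 and 24.1 CPM, 1.86-fold and 2.27-fold higher. All 3 BH3-only genes therefore stood above Sham in both injury libraries in this class. Without the correction between libraries the ratios were smaller, at 2.53 and 1.97 for Pmaip1, 2.53 and 1.8 for Bbc3 and 1.53 and 1.72 for Mcl1, so that all 3 genes were under 2-fold in IRI24h-TD and Mcl1 also in IRI24h-TDN. Bcl2l11 was then at 1.21 in IRI24h-TD.

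The survival gene Mcl1 was also higher in PTEC-like cells, at 132, 287 and 343 CPM, or 2.18-fold [1.99-2.38] and 2.60-fold [2.33-2.90]. Bcl2l1 was at 104, 182 and 170 CPM, 1.76-fold and 1.64-fold higher. Bcl2 was at 12.5, 11.6 and 8.02 CPM, and the intervals of both ratios include 1. Casp8 was at 58.1, 104 and 111 CPM, 1.79-fold and 1.91-fold higher. Mlkl had 1 UMI in 1079 Sham cells, 42 UMIs in 157 IRI24h-TDN cells and 20 UMIs in 118 IRI24h-TD cells. That corresponds to 0.11, 14.8 and 14.6 CPM, and the ratios of 132 [22.5-5353] and 131 [20.9-5424] have wide intervals because the Sham count is 1. Without the correction between libraries the Mlkl ratios were 18.6 and 19.5. After thinning they were 12.2 and 15.3, on under 20 UMIs in each pair. All of these lie under the lower bounds of those intervals. Ripk3 had 2, 12 and 8 UMIs, with the 2 Sham UMIs in a single cell, and its ratios of 18.9 [4.21-174] and 26.2 [5.22-253] rest on fewer than 20 UMIs. UMIs of both Ripk3 and Mlkl were found in 4 PTEC-like cells in IRI24h-TDN, 2 in IRI24h-TD and 0 in Sham.

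The PTEC-like class was not the same mixture of cells in each library. Its 16 marker genes summed to 64807 CPM in Sham, 11404 CPM in IRI24h-TDN and 8429 CPM in IRI24h-TD, and the defining transporter Slc34a1 was at 4980, 590 and 441 CPM. Havcr1, the tubular injury gene that encodes KIM-1, was at 5.35, 2824 and 949 CPM, and the podocyte marker list was at 2465, 1323 and 5019 CPM. The PEC marker list was at 298, 1681 and 3672 CPM. The part of these shifts in the results for PTEC-like cells was not tested.

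**Figure D2:**
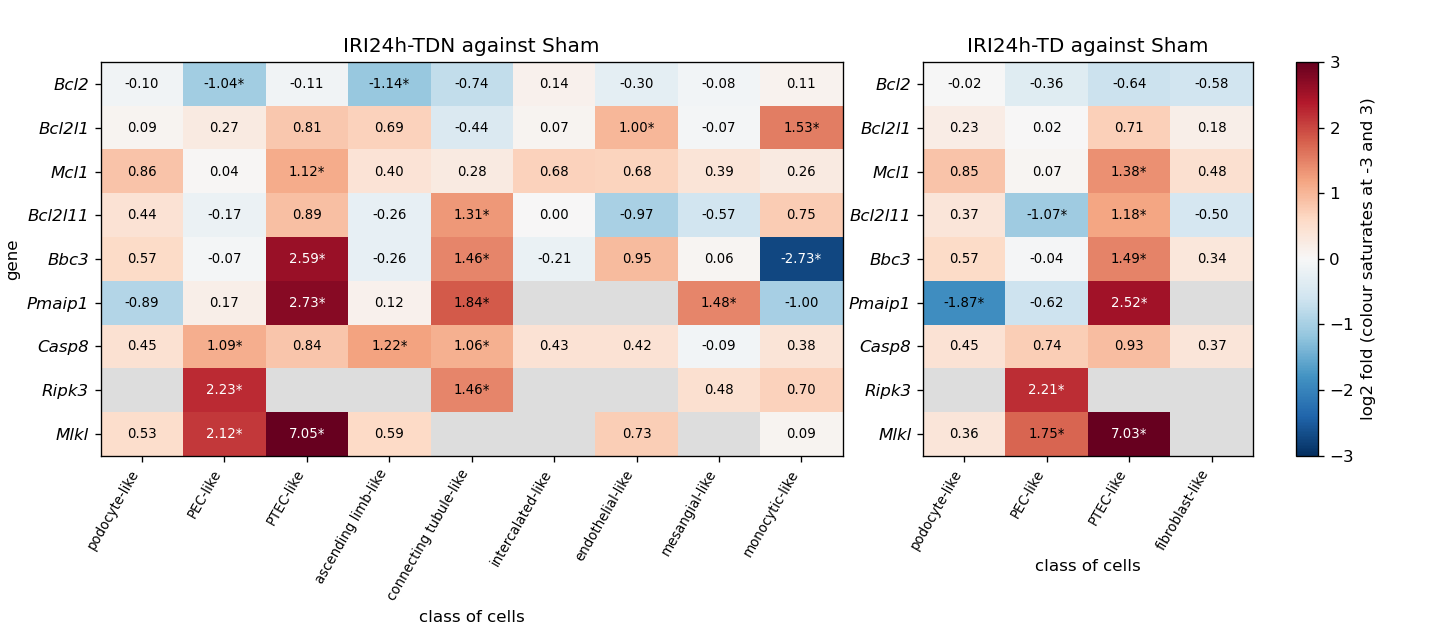
Log2 ratio of each gene to Sham, by class, for both injury libraries, with red for higher and blue for lower and the colour scale ending at 3 and -3. Grey cells had under 20 UMIs in the pair, an asterisk marks at least 2-fold, and the ascending limb-like value of Mlkl (0.59) is a bound because Sham had 0 UMIs. Pmaip1 and Mlkl in PTEC-like cells of both injury libraries, and Bbc3 in those of IRI24h-TDN, are the deep red cells, and Bbc3 in monocytic-like cells is the deep blue one.

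PEC-like cells of both injury libraries were higher than Sham in Casp8, Ripk3 and Mlkl, lower in Bcl2, and nearly level in Mcl1 and Bbc3. Sham held 912 PEC-like cells, IRI24h-TDN 365 and IRI24h-TD 503. In IRI24h-TDN 3 of 9 genes were at least 2-fold higher and 1 lower, beside 6.67% and 10.4% of all genes. In IRI24h-TD 2 of 9 were higher and 1 lower, beside 5.55% and 12.3%. This class too was not the same mixture in each library. Its PTEC marker sum was 4232, 1612 and 812 CPM in Sham, IRI24h-TDN and IRI24h-TD, Slc34a1 was at 533, 19.3 and 3.97 CPM, and Havcr1 at 6.88, 236 and 141 CPM. The part of these shifts in the results for PEC-like cells was not tested.

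Ripk3 was at 1.72 CPM [0.94-2.88] in PEC-like cells of Sham, on 14 UMIs, and at 8.04 CPM [5.60-11.2] in IRI24h-TDN and 7.94 CPM [5.77-10.7] in IRI24h-TD, on 35 and 44 UMIs. The injury libraries were 4.68-fold [2.46-9.42] and 4.62-fold [2.48-9.13] higher. Mlkl was at 3.44 CPM [2.28-4.97], 14.9 CPM [11.5-19.0] and 11.5 CPM [8.89-14.7], which is 4.35-fold [2.75-7.03] and 3.36-fold [2.12-5.44] higher. For both genes the injury libraries lay above Sham without overlap of the intervals, and overlapped each other. A UMI of Ripk3 was found in 1.21%, 7.40% and 7.36% of PEC-like cells, and one of Mlkl in 2.41%, 11.5% and 9.34%. Cells with both numbered 1, 5 and 5. After thinning, the shares for Ripk3 were 0.357%, 1.40% and 1.51%, close to the level of single UMIs. These differences were smaller without the correction between libraries: Ripk3 was 1.67-fold higher in IRI24h-TDN and Mlkl was 1.34-fold higher in IRI24h-TD.

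Casp8, whose protein cleaves RIPK3 and RIPK1, was at 43.5 CPM [39.1-48.2] in Sham, 92.4 CPM [83.6-102] in IRI24h-TDN and 72.3 CPM [65.4-79.8] in IRI24h-TD, or 2.13-fold [1.84-2.46] and 1.66-fold [1.44-1.93] higher. Bcl2 was at 72.1, 34.9 and 56.3 CPM, 2.06-fold lower [1.72-2.48] in IRI24h-TDN and 1.28-fold lower [1.11-1.47] in IRI24h-TD. The Bcl2 difference in IRI24h-TDN was past 2-fold in 4 of 13 other settings, with ratios from 0.33 to 0.80. Bcl2l11 was at 25, 22.3 and 11.9 CPM and so was 2.10-fold lower [1.59-2.82] in IRI24h-TD. Mcl1 was nearly level at 404, 416 and 423 CPM, and so was Bbc3 at 18.0, 17.2 and 17.5 CPM. For Mcl1 the class sums join clusters that differed from Sham in opposite directions, as given below. Mcl1 in PEC-like cells of Sham was already at the level that podocyte-like cells had in the injury libraries. Bcl2l1 was at 101, 122 and 102 CPM and Pmaip1 at 94.8, 107 and 61.7 CPM.

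The PEC-like class joined a pair of clusters that differed in these genes. The larger, of 1065 cells, had a PEC marker sum of 8068 CPM and a podocyte marker sum of 2375 CPM, while the smaller, of 715 cells, had 3512 and 22033 CPM. What set the smaller cluster apart was not tested. In the larger cluster Ripk3 was at 1.90 CPM in Sham, 11 CPM in IRI24h-TDN and 13.8 CPM in IRI24h-TD, 5.79-fold [2.87-12.6] and 7.26-fold [3.68-15.6] higher. Mlkl was at 2.42, 15.4 and 15.1 CPM there, 6.37-fold [3.46-12.5] and 6.24-fold [3.37-12.3] higher. Casp8 was at 50.6, 114 and 105 CPM, 2.25-fold and 2.07-fold higher, and Bcl2 at 66.0, 22.0 and 45.5 CPM, 3.0-fold and 1.45-fold lower. Pmaip1 was at 132, 146 and 110 CPM. Mcl1 was slightly lower in both injury libraries there, at 432, 396 and 400 CPM, by 1.09-fold [1.02-1.17] and 1.08-fold [1.01-1.16].

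The cluster rich in podocyte genes held few UMIs of Ripk3, with 3, 0 and 1 in Sham, IRI24h-TDN and IRI24h-TD. Pmaip1 was at 2.55, 0.86 and 0 CPM there, so that the Pmaip1 of the PEC-like class came from the larger cluster. Casp8 was at 25.9, 33.4 and 30.5 CPM, near its podocyte-like level. Mlkl was at 5.95, 13.7 and 7.01 CPM, and its ratio of 2.31 [1.05-5.10] in IRI24h-TDN was the only one of the pair above 2-fold. Mcl1 was at 334, 471 and 452 CPM, 1.41-fold [1.26-1.58] and 1.36-fold [1.24-1.49] higher. In Pmaip1 and Casp8 this cluster was therefore closer in level to podocyte-like cells than to the other PEC-like cells.

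**Figure D3:**
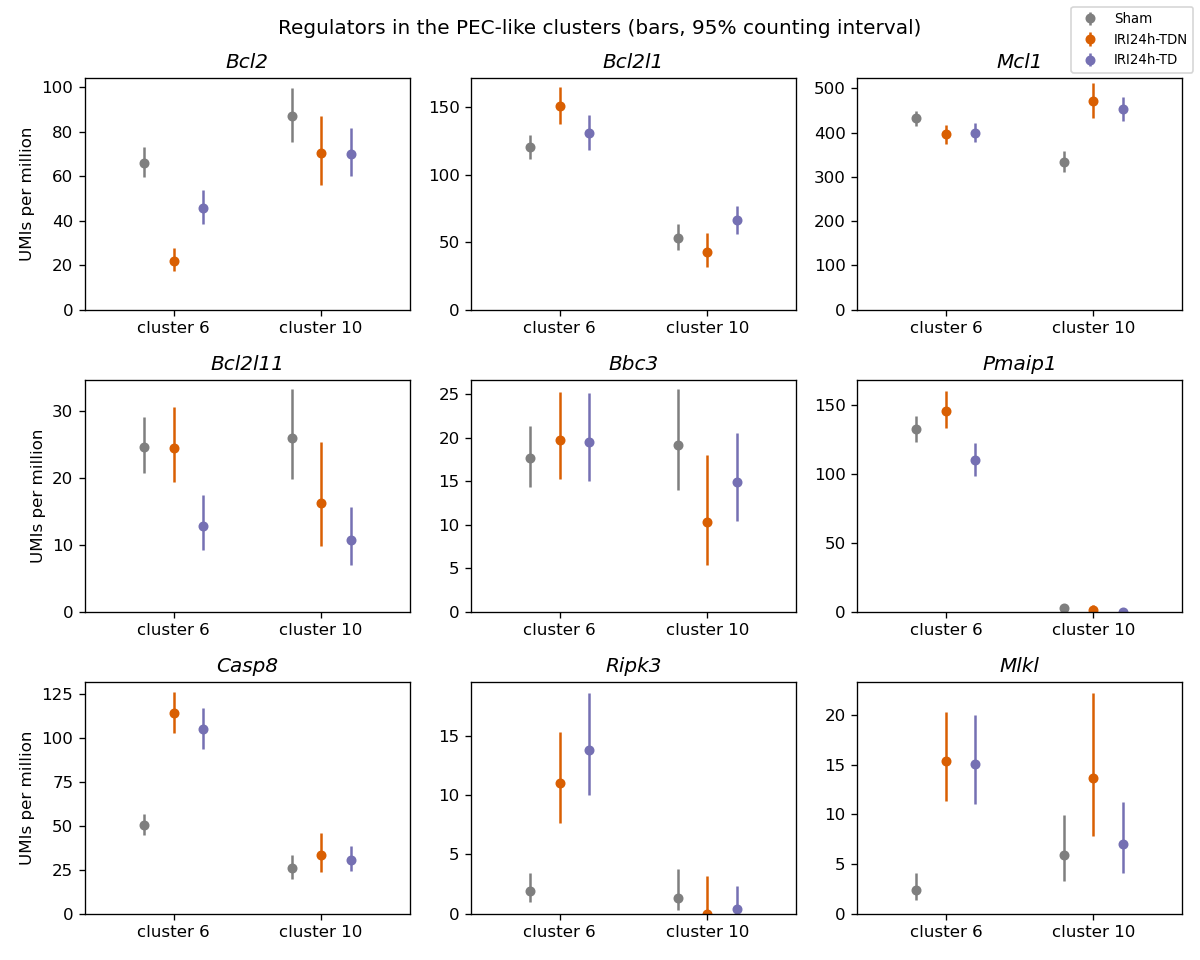
Levels of the 9 genes in both PEC-like clusters by library, in CPM (linear axes) with exact 95% counting intervals. Ripk3, Mlkl and Casp8 stand above Sham in both injury libraries in the larger cluster (Ripk3 at 1.90, 11 and 13.8 CPM), and Pmaip1 is near 0 in the cluster rich in podocyte genes.

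PEC-like cells in which a Wt1 UMI was found were compared with those without one, since WT1+ PECs were a subject of the study. The 1411 cells with a Wt1 UMI had a median of 9613 UMIs and the 369 without had 4793, so that the split partly follows depth. It also follows the clusters: the podocyte marker sum was 10107 CPM with Wt1 and 1142 CPM without, and Bcl2l1 itself was at 131 CPM in the larger cluster and 56.3 CPM in the one rich in podocyte genes. The part of depth and of the clusters in the ratios was not tested. Bcl2l1 was the member whose ratio had an interval below 1 in each library: cells with Wt1 were at 96.7 CPM and those without at 166 CPM, a ratio of 0.58 [0.52-0.65]. Within Sham, IRI24h-TDN and IRI24h-TD the ratio was 0.65 [0.55-0.78], 0.49 [0.41-0.59] and 0.68 [0.52-0.90]. For Mcl1 the ratio was 1.16 [1.04-1.28] in Sham and 1.20 [1.06-1.35] in IRI24h-TDN. For Ripk3 and Mlkl the intervals of the ratio included 1 in Sham and in IRI24h-TDN, and in IRI24h-TD Ripk3 had a ratio of 0.39 [0.18-0.97].

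Among immune-like cells, monocytic-like cells numbered 274 in Sham and 905 in IRI24h-TDN, with 13 in the sorted library. In IRI24h-TDN against Sham 1 of 9 genes was at least 2-fold higher and 1 lower, where 15.7% and 7.33% of all genes were. Bbc3 was at 167 CPM [145-191] in Sham and 25.3 CPM [21.4-29.6] in IRI24h-TDN, 6.62-fold lower [5.35-8.20]. The share of cells with a Bbc3 UMI was 39.4% in Sham and 13.8% in IRI24h-TDN, and after thinning 28.5% and 5.77%. Pmaip1 was lower too, at 399 CPM [365-436] and 200 CPM [189-212], just inside the 2-fold mark. Bcl2l1 went the other way, from 59.2 CPM [46.5-74.3] in Sham to 171 CPM [160-181] in IRI24h-TDN, 2.88-fold higher [2.27-3.70]. Bcl2l11 was 1.69-fold higher [1.37-2.09], at 81.6 and 138 CPM, and Mcl1 was at 1196 and 1430 CPM. Ripk3 was at 18.4 CPM [11.7-27.6] and 29.9 CPM [25.7-34.5].

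Monocytic-like cells fell into a pair of clusters, with 249 Sham and 714 IRI24h-TDN cells in the larger and 25 and 191 in the smaller. The differences of Bbc3 and Bcl2l1 were present within the larger cluster, where Bbc3 was at 173 and 27.4 CPM and Bcl2l1 at 64.0 and 195 CPM. Bcl2l11 was at 65.8 and 102 CPM in that cluster. In the smaller one Bcl2l11 was at 276 CPM [181-405] in the 25 Sham cells, on 26 UMIs, and at 261 CPM in IRI24h-TDN. A Bcl2l11 UMI was found in 44% and 69.1% of the cells there. Hspa1a was at 3206 CPM in Sham and 767 CPM in IRI24h-TDN in the larger cluster, Fos at 3051 and 1585 CPM and Tnf at 3210 and 1529 CPM. These stress and cytokine genes were lower in IRI24h-TDN together with Bbc3, and their part in the Bbc3 result was not tested.

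Tubule-like classes other than PTEC-like were compared between Sham and IRI24h-TDN, since the sorted library held too few of them. Connecting tubule-like cells (237 and 339 cells) had 5 of 8 genes at least 2-fold higher and 0 lower, beside 8.7% and 7.63% of all genes. Pmaip1 was at 27.1 CPM [20.3-35.6] in Sham and 97.2 CPM [87.1-108] in IRI24h-TDN, 3.58-fold higher [2.67-4.89]. Bcl2l11 was at 9.39 and 23.3 CPM, Bbc3 at 4.18 and 11.5 CPM, Casp8 at 32.9 and 68.4 CPM, and Ripk3 at 2.61 and 7.19 CPM. Their ratios were 2.48 [1.47-4.39], 2.75 [1.27-6.81], 2.08 [1.57-2.79] and 2.75 [1.04-9.21]. The survival genes Bcl2 (80.9 and 48.3 CPM) and Bcl2l1 (225 and 166 CPM) were lower, by 1.68-fold [1.34-2.09] and 1.36-fold [1.20-1.54]. The third survival gene, Mcl1, went the other way, at 241 and 292 CPM, 1.21-fold higher [1.09-1.36].

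Ascending limb-like cells (130 and 519 cells) had 1 of 8 genes higher and 1 lower by at least 2-fold, beside 9.3% and 10.5% of all genes. Bcl2 was at 52.7 CPM in Sham and 23.9 CPM in IRI24h-TDN, 2.20-fold lower [1.55-3.08]. Casp8 was at 18.3 and 42.5 CPM, 2.32-fold higher [1.42-4.06]. Mlkl had 0 UMIs in Sham and 27 in IRI24h-TDN at 4.86 CPM, at least 1.51-fold higher when Sham is set to a floor of 3 UMIs. In intercalated-like cells (182 and 355 cells) 0 of 6 genes were past 2-fold in either direction, beside 9.15% higher and 6.33% lower over all genes. The class joined a pair of clusters, with 60 and 122 cells in Sham and 226 and 129 in IRI24h-TDN, in which Bcl2l11 was at 22.8 and 7.39 CPM and Bcl2l1 at 170 and 121 CPM. The largest ratio of the class among genes with 20 UMIs was that of Mcl1, 1.60 [1.45-1.78].

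Endothelial-like cells (207 and 104 cells) had 1 of 7 genes higher and 0 lower, beside 6.35% and 9.84% of all genes. Bcl2l1 was at 108 CPM [85.7-134] in Sham and 216 CPM [178-260] in IRI24h-TDN, a ratio of 2.0 [1.49-2.70] that sits on the mark. The podocyte marker sum of these endothelial-like cells was 17345 CPM in Sham and 9540 CPM in IRI24h-TDN. Their median depth was 2353 and 3822.5 UMIs. The part of these differences in the Bcl2l1 result was not tested. Mesangial-like cells (282 and 457 cells) also had 1 of 8 higher and 0 lower, beside 5.17% and 5.29%. That gene was Pmaip1, on 4 and 18 UMIs, with a ratio of 2.78 [0.92-11.3] whose interval includes 1. In fibroblast-like cells (141 in Sham and 51 in IRI24h-TD) 0 of 6 genes were past 2-fold, beside 5.54% higher and 11.1% lower.

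Both injury libraries were set beside each other within the podocyte-like and PEC-like classes, since they followed the same surgery and differ in the sort. Whether they also differ in animals is not given. In podocyte-like cells 0 of 8 genes were at least 2-fold higher and 0 lower in IRI24h-TD than in IRI24h-TDN, beside 0.666% and 3.13% of all genes. In PEC-like cells 0 of 9 were higher and 0 lower, beside 1.61% and 4.1%. The podocyte-gene-rich cluster held 249 of 503 PEC-like cells in IRI24h-TD and 135 of 365 in IRI24h-TDN. Within the larger cluster alone Bcl2 was at 45.5 CPM [38.4-53.7] in IRI24h-TD and 22.0 CPM [17.1-27.8] in IRI24h-TDN, which is past the 2-fold mark, and Pmaip1 was at 110 and 146 CPM. Within podocyte-like cells Mcl1 had a ratio of 0.99 [0.97-1.0], Bbc3 of 1.0 [0.88-1.13] and Casp8 of 1.0 [0.94-1.06]. In PEC-like cells the widest ratios were those of Bcl2l11, 1.87-fold lower [1.36-2.60] in IRI24h-TD, Pmaip1, 1.73-fold lower [1.5-2.0], and Bcl2, 1.61-fold higher [1.32-1.97]. Ripk3 had a ratio of 0.99 [0.62-1.58] there.

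**Figure D4:**
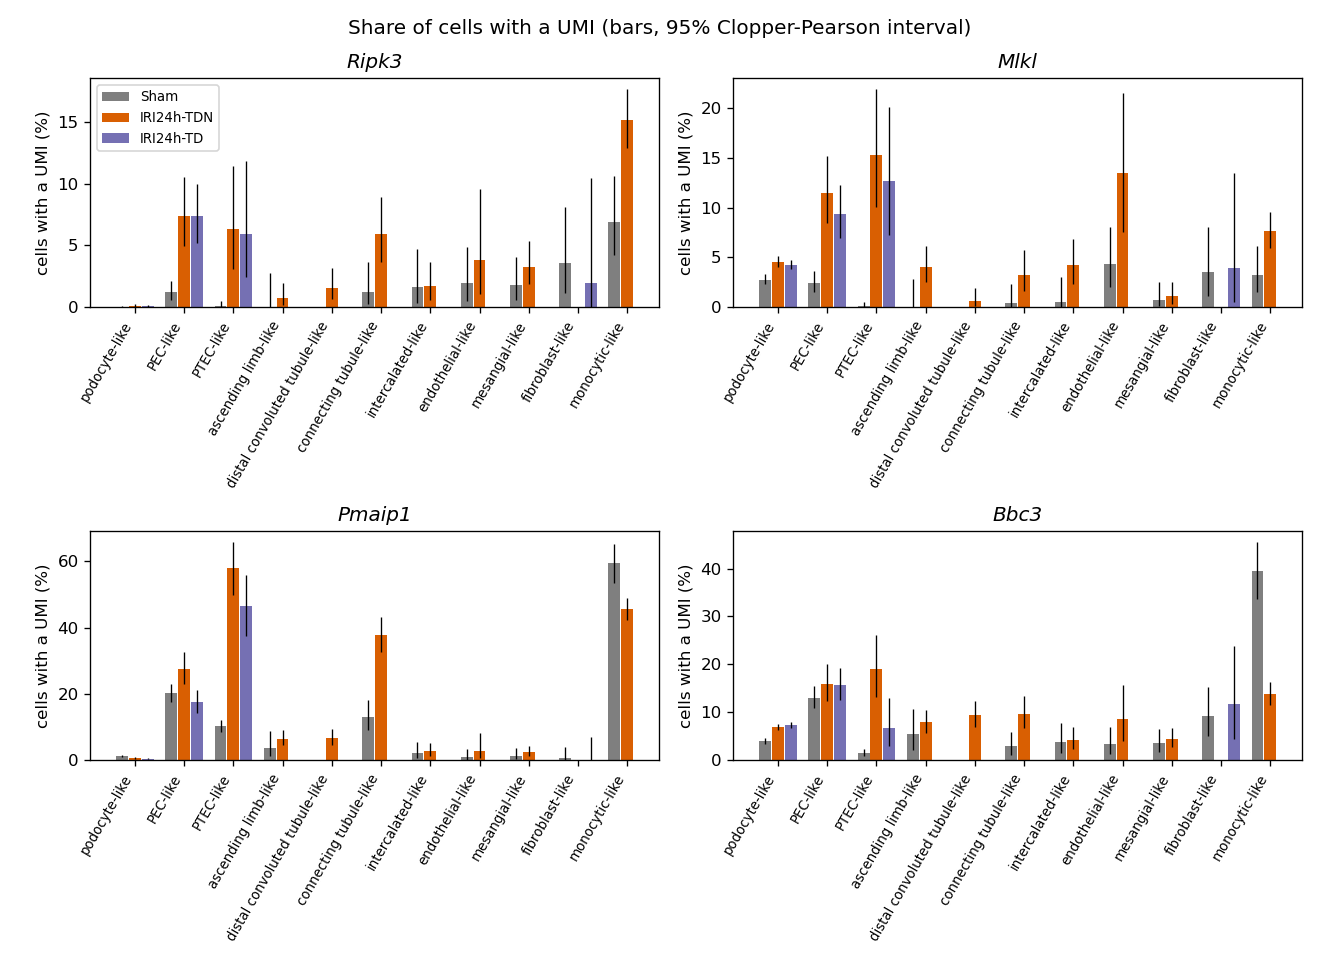
Percent of cells with at least 1 UMI of Ripk3, Mlkl, Pmaip1 and Bbc3 by class and library, with exact 95% binomial intervals. Pmaip1 is found in 10.3% of PTEC-like cells in Sham and in 58.0% and 46.6% in the injury libraries, Bbc3 in 39.4% and 13.8% of monocytic-like cells in Sham and IRI24h-TDN, and Ripk3 in under 1% of podocyte-like cells in each library.

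The 45 other genes of these pathways were counted by role, from a list set by function. In podocyte-like cells of IRI24h-TDN 4 of 37 genes with enough UMIs were at least 2-fold higher and 3 lower, beside 5.46% and 9.44% of all genes. The higher ones were Tnfaip3, which encodes the ubiquitin editor A20 that restrains TNF signalling, Birc3, an inhibitor of apoptosis, and the receptors Fas and Tlr4. Tnfaip3 was at 45.9 CPM in Sham, 225 CPM in IRI24h-TDN and 230 CPM in IRI24h-TD, 4.91-fold [4.66-5.17] and 5.01-fold [4.76-5.26] higher. Birc3 was at 10.05, 21.4 and 21.5 CPM. Fas was at 0.52, 1.36 and 1.09 CPM, 2.61-fold [1.55-4.59] and 2.10-fold [1.27-3.64] higher, and Tlr4 at 0.77, 1.78 and 1.95 CPM. The lower ones were Cycs (cytochrome c; 83.8, 19.0 and 19.5 CPM), Tnfsf10 (the death ligand TRAIL; 14 and 6 UMIs in Sham and IRI24h-TDN) and Pgam5 (24 and 9 UMIs).

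In PEC-like cells of IRI24h-TDN 3 of 37 pathway genes were at least 2-fold higher and 2 lower, beside 6.67% and 10.4% of all genes. Birc5, which encodes survivin and is also a cell division gene, was at 15.2 CPM in Sham, 72.9 CPM in IRI24h-TDN and 68.4 CPM in IRI24h-TD, 4.79-fold [3.88-5.94] and 4.49-fold [3.66-5.55] higher. The division markers Mki67 (61.9, 102 and 105 CPM) and Top2a (63.7, 127 and 127 CPM) were higher in the same libraries. Bid, the BH3-only substrate of caspase-8, was at 8.35, 18.2 and 6.86 CPM and Tnf at 2.58, 6.44 and 1.98 CPM, both higher in IRI24h-TDN and not in IRI24h-TD. Cycs was at 190, 33.8 and 22.7 CPM and Tnfsf10 at 14.4, 4.37 and 5.05 CPM, both lower in each injury library.

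In PTEC-like cells 10 of 35 pathway genes were at least 2-fold higher and 4 lower in IRI24h-TDN, and 15 of 35 higher and 3 lower in IRI24h-TD. Over all genes 16.1% were higher and 15.4% lower in the first, and 20.9% and 12.4% in the second. All 3 pore formers were among the higher ones in both. Bax was at 74.9, 195 and 171 CPM, Bak1 at 10.03, 55.2 and 87.5 CPM and Bok at 3.34, 7.03 and 10.2 CPM. In podocyte-like and PEC-like cells none of the 3 pore formers was past 2-fold in either injury library. The median log2 difference over the pathway list was 0.43 and 0.64 in PTEC-like cells of IRI24h-TDN and IRI24h-TD, 0.24 and 0.10 in PEC-like cells and 0.09 and 0.05 in podocyte-like cells. Over all genes these medians were 0.10 and 0.29, -0.03 and -0.02, and -0.06 and -0.04.

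The genes most alike in pattern were taken from the Pearson correlation of log2(CPM + 1) over the 24 sums of at least 50 cells of a class in a library, among 14501 genes. These sums share libraries and depth, so the values describe likeness only. For Mcl1 they were Rel (r = 0.93), Zc3h12a (0.92) and Abi1 (0.91). Pcna (0.87) and H2afz (0.86) were among the 3 most like Ripk3, and Mlkl was most like Rac1 (0.91), Tpm3 (0.88) and Tex30 (0.86). For Casp8 they were Ogfr (0.90), Atox1 (0.86) and Vars (0.85). Bcl2 was most like Bicd2, Inafm1 and E130307A14Rik (0.80 each), and Bcl2l1 most like Usp3 (0.86), Furin (0.83) and Sys1 (0.82). For Bcl2l11 they were Basp1 (0.88), Tlr2 (0.87) and Irf8 (0.86), for Bbc3 Pcna (0.85), Ifih1 (0.84) and H3f3b (0.84), and for Pmaip1 Sema4d (0.90), Rfc2 (0.89) and Smpdl3b (0.86). Among the members themselves the highest values were 0.79 for Bcl2l11 with Ripk3 and 0.76 for Mcl1 with Bbc3, and the lowest was -0.51 for Bcl2 with Bcl2l1.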

How the data were processed

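Cells were dissociated, sorted and loaded on the BD Rhapsody system per the study's methods. The count tables hold, per the file headers, whole-number UMI counts per gene and cell barcode that the authors deposited without normalisation, on mm10; CASAVA 1.8, UMI-tools and Seurat are named in the submitters' processing notes. Roles and further versions of these tools are not given in the sources used here.

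Barcodes with at least 200 genes and at most 50% mitochondrial UMIs were kept. Counts were scaled to 10000 per cell and logged, 2000 variable genes (without the 9 members and the pathway list) and 30 components were corrected with Harmony (theta 2), and cells were clustered with Leiden (15 neighbours, resolution 1) in Python 3.11.15. The neighbour graph was set after a first version had split the cells too finely. Clusters were named from marker lists. A shallow cluster with no own marker among its leading genes stayed unnamed. The study's methods state that multiplets were excluded, and simulated doublets were weighed only as an alternative. Summed counts were compared as CPM where a class had 50 cells in both libraries. A ratio counted as past 2-fold with at least 20 UMIs in the pair, and a library at 0 was set to 3 UMIs. edgeR 4.0.16 gave TMM factors. The ratio code was tested on simulated data. The members, marker lists and pathway list were chosen with earlier results of these data known. Named were all 9 members, pathway genes past 2-fold in podocyte-like or PEC-like cells of IRI24h-TDN, and the 3 genes most alike to each member, with at least 100 UMIs. A gene alike to Ripk3 is not reported here. The pore formers, Slc34a1, Havcr1, Kap, Fos, Hspa1a, Mki67 and Top2a were added after values were seen.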

Additional observations from a re-analysis of the deposited data

Results flagged for a closer look

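Bbc3 differed in direction between classes in IRI24h-TDN against Sham. Its log2 ratio was 2.59 in PTEC-like cells and 1.46 in connecting tubule-like cells, and -2.73 in monocytic-like cells. The difference between classes was not tested, since each condition was 1 library.

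Barcodes outside the limits on genes and mitochondrial UMIs also held member UMIs. Sham had 256 of them in 2015 barcodes. IRI24h-TDN had 496 in 1038 barcodes, and IRI24h-TD had 45 in 195.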

How the results depend on the processing

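Over 16 settings, of which leaving out the PEC-like cluster rich in podocyte genes and counting the shallow podocyte-gene cluster as podocyte-like were chosen after seeing the data, 1717 of 1816 ratios stayed within the counting interval of the value in the report, 99 moved beyond it and 0 of those past 2-fold reversed. A change of the UMI minimum or of the fold mark leaves every ratio as it was. Each setting chosen after seeing the data changes only the PEC-like or only the podocyte-like class. The 1717 ratios therefore include some that could not move. In IRI24h-TDN 19 of 71 gene and class pairs with enough UMIs were past 2-fold, over 9 classes. In IRI24h-TD 9 were, over 4 classes. The shares over all genes at the 2-fold mark are given with each class above. They were not computed for the other marks and settings, so the following counts describe only how the calls depend on the setting. A mark of 1.5-fold gave 35 and 15, with 7 (IRI24h-TDN) and 8 (IRI24h-TD) in PTEC-like cells, 2 and 2 in podocyte-like cells and 5 in PEC-like cells of IRI24h-TD. Without Harmony IRI24h-TD had 4 in all, with 3 in PTEC-like and 0 in PEC-like cells, and IRI24h-TDN had 1 in PEC-like cells. After thinning to 2400 UMIs IRI24h-TD had 4 in all and 3 in PTEC-like cells, and PEC-like cells had 0 in either library. Ripk3 and Mlkl kept ratios of 3.54 to 6.04 there with under 20 UMIs in a pair, while Casp8 was at 1.62 and Bcl2 at 0.80 in IRI24h-TDN. With the top 6% of doublet scores left out, and with 4000 variable genes, PTEC-like cells of IRI24h-TD had 3 and podocyte-like cells of IRI24h-TDN had 1. The mean over cells gave 2 in PEC-like cells of IRI24h-TDN. A minimum of 10 UMIs gave 2 in podocyte-like cells of IRI24h-TD, and a minimum of 1 UMI gave 2 there and 1 in IRI24h-TDN. Except where the construction shows it, the cause was not tested. No paired analysis was possible because each condition was 1 library.

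Ratios past 2-fold kept their direction in each setting, except that Bbc3 in PTEC-like cells of IRI24h-TD was at 1 after thinning. Those past 2-fold in the fewest settings were Bcl2 in PEC-like cells of IRI24h-TDN (4 of 13), Bcl2l11 in PTEC-like cells (6 of 13) and PEC-like cells (7 of 13) of IRI24h-TD, and Bcl2l1 in endothelial-like cells (7 of 13). TMM factors moved all log2 ratios by -0.13 in PTEC-like cells of IRI24h-TDN, -0.25 in those of IRI24h-TD and -0.24 in monocytic-like cells, and by less than 0.1 in the other classes, so Mcl1 in PTEC-like cells of IRI24h-TDN was then 1.98-fold higher and no longer past 2-fold. The class with the highest level changed for Bcl2, Bcl2l11 and Mcl1 under some settings.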

Other observations

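Cycs, which encodes cytochrome c, the mitochondrial electron carrier that starts caspase activation once released, was at least 2-fold lower than in Sham in 9 of 9 classes of IRI24h-TDN, by 3.16 to 11.5-fold. In IRI24h-TD it was lower in 4 of 4 classes, by 2.16 to 8.37-fold. Between both injury libraries it was past 2-fold in 0 of 2 classes. Cycs has processed pseudogenes in the mouse, so its counts are uncertain where reads could be shared. As Sham is 1 library, a difference seen in each class cannot be told apart from that library.

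Tnfrsf1a, the TNF receptor that can lead to either form of death, was at 11.5 CPM in PTEC-like cells of Sham, 82.2 CPM in IRI24h-TDN and 61.3 CPM in IRI24h-TD, 7.16-fold [5.66-9.12] and 5.34-fold [3.95-7.19] higher. It was named after its values were seen.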
